A study of Mus musculus with 4 samples.

Results

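The 31 genes described here act in meiotic prophase, when germ cells pair their homologous chromosomes, join them along the synaptonemal complex and recombine their DNA. They were taken as listed mouse symbols and found on the arrays through the RefSeq accession of each probe. Of the 31 genes, 19 had a probe, out of 33390 features that the arrays measured, and all 19 were well above background on all 4 arrays and entered the test. The genes without a matched probe, which are not analysed here, were Hormad2, Syce1, Syce3, Prdm9, Mei1, Rec114, Meiob, Rnf212, Majin, Spdya, Meioc and Ythdc2.

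RNA was taken from testes of male mice at postnatal day 7 that carried a transgene of FLAG-tagged Nanos2 with the Nanos2 3′ untranslated region, driven by a Nanos2 enhancer. RNA recovered with the tag (FLAG IP, 2 arrays) was set against RNA of the starting testis (Input, 2 arrays), and both groups carried the transgene. The question was which mRNAs travel with NANOS2, a germ cell protein that binds RNA, in the postnatal testis. The labels do not say whether the animals also had endogenous Nanos2, RNA from untagged testis was not analysed here, and nothing in the labels says from how many animals a replicate came. A difference is therefore a difference in a transcript's share of the recovered RNA, and p-values measure the spread between these samples.

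In prophase the sister chromatids are held by cohesin on a protein axis, SPO11 cuts the DNA, DMC1 and its partners find the homologous chromosome, and the MutS homologues stabilise the joints that become crossovers. Transverse filaments of SYCP1 and a central element then zip the axes together. NANOS2 is known to keep male germ cells out of meiosis and to recruit the CCR4-NOT deadenylase to its target mRNAs. At the end of the first postnatal week the germ cells of a mouse testis are mostly spermatogonia, and cells in meiotic prophase become frequent later.

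Transcripts that mark testis cell types were found in the samples. All 5 markers of germ cells of any stage, all 8 of Sertoli cells and all 5 of Leydig cells were well above background on all 4 arrays. In limma 3 of the 8 Sertoli, 2 of the 5 Leydig, 1 of 3 peritubular myoid and both measured macrophage markers were called lower in the FLAG IP. All 5 measured markers of undifferentiated spermatogonia were called higher, and none of the 5 germ cell markers was called. Among all features 15.8% were called higher and 21.3% lower. Of 12 markers of pachytene and later germ cells 8 were above background on all 4 arrays, while Acrv1, Odf1 and Crisp2 were above it on none. Their summed level was 1.25 on each FLAG IP array, against 0.796 and 0.788 on the Input arrays, in units of the array's 75th percentile signal. Ldhc, a testis lactate dehydrogenase, was the only one of the 8 called (1.89, limma, adjusted p = 0.0045), and without it the summed level of the other 11 was 0.693 and 0.646 in the FLAG IP, against 0.629 and 0.641 in the Input. The share of probes above background was 66.3% to 68.4% per array. The signal at the 75th percentile was 1019 and 1267 units in the FLAG IP, against 1474 and 1676 units in the Input. Precision is limited by the number of arrays. A marker called lower here had a lower share of the recovered RNA, and numbers of cells were not measured.

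Most of the meiotic genes did not pass the test. Sycp1, Mei4 and Msh4 were higher in the FLAG IP, none of the 19 was lower, and 16 did not pass the test (limma, Benjamini-Hochberg adjusted p under 0.05 over all 21594 features tested). Of all features 15.8% were called higher and 21.3% lower, so 3 of 19 is near the background for higher calls. Counted without adjustment, 6 of the 19 had limma p under 0.05, namely these 3 with Sycp2, Stag3 and Msh5. Among all 21594 features 10766 did, so 6 of 19 is no excess. The median change over the 19 was -0.02, beside -0.15 over all features, where a change is FLAG IP minus Input on the log2 scale. Both FLAG IP arrays lay above both Input arrays for 5 genes and below them for 6, beside 29.8% and 44.7% of all features, and the arrays of the groups overlapped for 8. With the arrays scaled to spike-in control spots instead, the median of all features moved to -1.12. None of the 19 was then called higher and 10 were called lower, beside 588 and 13735 of all 21594 features. Relative to that shifted median 11 of the 19 lay above the median feature and 8 below it. The spike-in fit gave all 19 genes the same standard error, 0.41, so its calls among them followed the size of the change alone.

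**Figure D1:**
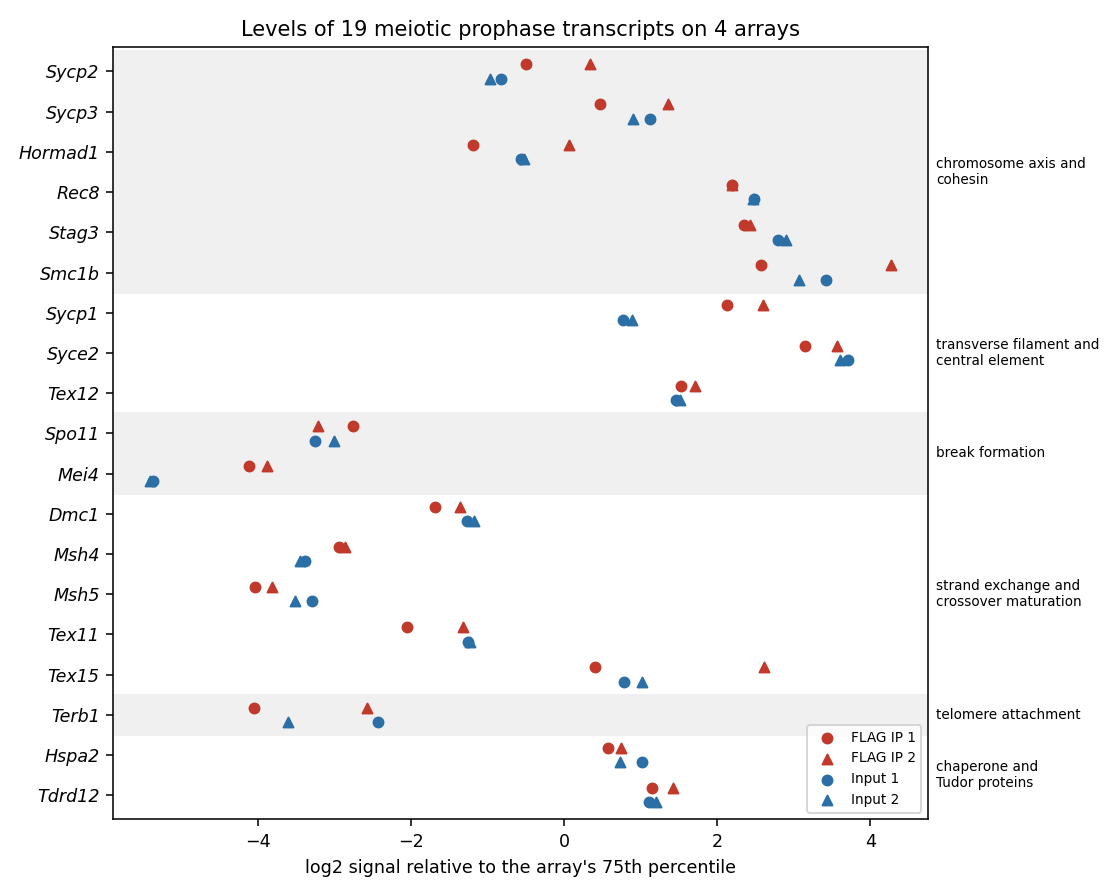
Level of each of the 19 genes on each array (horizontal axis, log2 signal relative to the array's 75th percentile), grouped by role, with FLAG IP arrays in red and Input arrays in blue and replicate 1 as circles and replicate 2 as triangles. Sycp1 and Mei4 show red symbols well to the right of blue ones, and Tex15 and Smc1b show FLAG IP arrays that lie on either side of the Input arrays. Positions of different genes rest on different probes and are not to be compared.

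Sycp1 encodes the transverse filament protein that spans the gap between paired axes. Its level was 2.13 and 2.60 on the FLAG IP arrays, against 0.77 and 0.88 on the Input arrays, as log2 signal relative to the array's 75th percentile. As processed signals these were 4449 and 7672 units in the FLAG IP, against 2518 and 3086 units in the Input. Both FLAG IP arrays were above both Input arrays, and the change was 1.54 ± 0.21 (limma standard error, n = 2 per group, adjusted p = 0.0097), a 2.90-fold difference. It exceeded the change of 95.5% of the tested features. The call ended without either Input array, where the change was 1.48 and 1.59 and the spread came from the FLAG IP arrays alone. Under spike-in scaling the change was 0.56 ± 0.41 (limma, adjusted p = 0.21). It lay 1.68 above the median feature, a distance that the choice of scaling does not alter.

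The other measured genes of this role did not pass the test. Syce2, a central element protein, was at 3.15 and 3.57 in the FLAG IP and 3.70 and 3.60 in the Input. The FLAG IP arrays were the lower ones, but by little, and the change of -0.30 had a 95% interval of -0.80 to 0.21 (adjusted p = 0.28 in limma). Tex12, the central element partner of SYCE2, was at 1.53 and 1.71 in the FLAG IP and 1.46 and 1.51 in the Input. Its arrays did not overlap, the change was 0.13 with a 95% interval of -0.25 to 0.51, and its dimmer probe had -0.09. The interval for Sycp1, 1.0 to 2.07, lay above both of these intervals, and the difference between genes was not itself tested.

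Mei4, which acts with SPO11 and its partners in forming DNA double-strand breaks, gave a dim signal. It had processed signals of 58.4 and 86.2 units in the FLAG IP and 35.4 and 39.5 units in the Input, where the dimmest probes called well above background had 13.4 to 19.4 units. On the scaled log2 axis its level was -4.12 and -3.88 in the FLAG IP and -5.38 and -5.41 in the Input. The groups were well apart, with replicates 0.25 and 0.03 from each other, and the change was 1.39 ± 0.15 (limma, adjusted p = 0.0070), a 2.63-fold difference. A second Mei4 probe was not well above background on any array. The size depended on the background correction, at 0.82 with normexp. The call ended without either Input array, where the change was 1.41 and 1.38 and the spread came from the FLAG IP arrays alone. Under spike-in scaling the change was 0.42 (adjusted p = 0.35).

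Spo11, the topoisomerase-like protein that makes the breaks, did not pass the test. It was at -2.77 and -3.22 in the FLAG IP and -3.26 and -3.01 in the Input, so the groups overlapped, and a second probe had a change of 0.02. Its change of 0.14 had a 95% interval of -0.42 to 0.70, which lies below the interval of Mei4, 0.99 to 1.80.

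Msh4 and Msh5 encode the 2 MutS homologues that act as a heterodimer on recombination intermediates, and their transcripts lay on opposite sides of the Input. Msh4 was at -2.94 and -2.87 in the FLAG IP and -3.39 and -3.45 in the Input. The replicates were within 0.07 of each other in both groups, and the change was 0.52 ± 0.14 (limma, adjusted p = 0.041), a 1.43-fold difference. That call was the least firm of the 3. It ended with the replicate number as a block (limma, adjusted p = 0.15) and without any 1 of the 4 arrays. It also ended with trend and robust moderation (adjusted p = 0.062) and with no filter on dim probes (0.056). Under spike-in scaling the change was -0.45 (adjusted p = 0.31). The change lay 0.66 above the median feature, which the choice of scaling does not alter.

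Msh5 was at -4.05 and -3.81 in the FLAG IP, against -3.30 and -3.52 in the Input. Both FLAG IP arrays were below both Input arrays, and the change of -0.52 ± 0.17 did not pass (limma, adjusted p = 0.067). Its dimmer probe had -0.64 ± 0.14 and passed when every probe was fitted as its own feature (adjusted p = 0.026), as did the mean of both probes (-0.58, adjusted p = 0.039). With normexp background correction the change was -0.22. The 95% intervals were 0.16 to 0.87 for Msh4 and -0.96 to -0.08 for Msh5, and the difference between the genes was not itself tested.

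**Figure D2:**
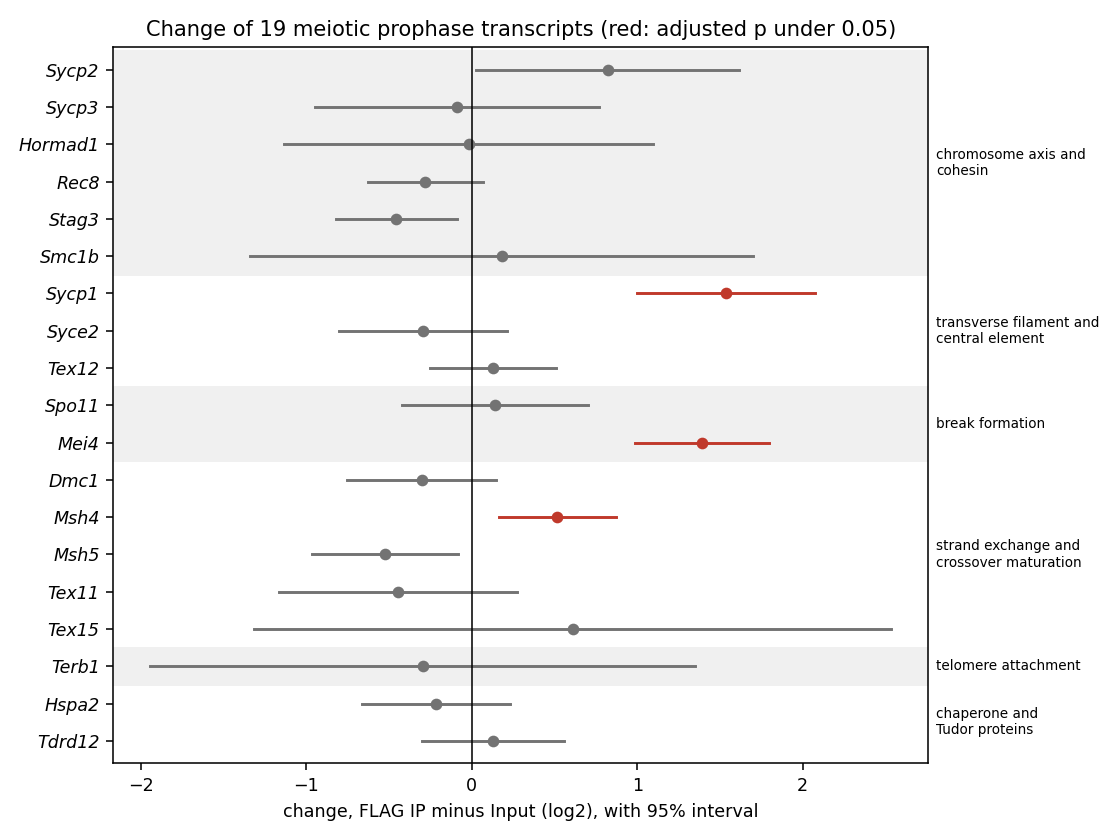
Change of each of the 19 genes (horizontal axis, FLAG IP minus Input, log2), with limma 95% intervals, in red where the adjusted p was under 0.05. Sycp1, Mei4 and Msh4 are red at 1.54, 1.39 and 0.52, of which Msh4 is at -0.45 under spike-in scaling, and Tex15, Terb1 and Smc1b have the widest intervals.

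Among the genes of the chromosome axis, Sycp2 had the largest change. Sycp2 encodes an axis protein that binds SYCP3, and its brightest probe was at -0.49 and 0.34 in the FLAG IP and -0.83 and -0.97 in the Input. Both FLAG IP arrays lay above the Input arrays, though at 0.83 from each other, and the change of 0.82 ± 0.30 did not pass (limma, adjusted p = 0.093). A second probe had 1.0 ± 0.24 (adjusted p = 0.035 when fitted as its own feature), the mean of the probes passed (0.91, adjusted p = 0.019), and the remaining probe was not well above background on any array. Without FLAG IP 1 the change was 1.24, and under spike-in scaling it was -0.15.

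Sycp3, the other structural protein of the axis, was at 0.47 and 1.36 in the FLAG IP and 1.12 and 0.89 in the Input. The FLAG IP arrays lay on either side of the Input arrays, and the change of -0.09 had a 95% interval of -0.95 to 0.77. Hormad1, an axis protein that is removed as chromosomes synapse, was at -1.19 and 0.06 in the FLAG IP and -0.57 and -0.53 in the Input. Its Input arrays were close together while the FLAG IP arrays lay on both sides of them, so the change of -0.02 averaged values of opposite sign. Against the Input mean, Hormad1 was at 0.60 on FLAG IP 2 and at -0.64 on FLAG IP 1.

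None of the meiotic cohesin subunits passed the test. Stag3 was at 2.35 and 2.43 in the FLAG IP and 2.79 and 2.90 in the Input. These groups did not overlap, and the change of -0.46 ± 0.14 did not pass (limma, adjusted p = 0.060), although with trend and robust moderation Stag3 was called lower (adjusted p = 0.024). Rec8, the meiotic kleisin, was at 2.19 and 2.20 in the FLAG IP and 2.48 and 2.47 in the Input. Replicates were within 0.02 of each other, the change was -0.28 ± 0.13 (adjusted p = 0.15), and its dimmer probe had 0.20, so the probes of Rec8 disagreed in sign. Smc1b, the meiotic SMC subunit, was at 2.57 and 4.27 in the FLAG IP and 3.42 and 3.07 in the Input. The FLAG IP arrays lay on either side of the Input again, and the interval of its change of 0.18 was wide, from -1.34 to 1.70. Without FLAG IP 1 its change was 1.03.

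Of the other recombination genes, none passed. Dmc1, the meiotic recombinase, was at -1.69 and -1.36 in the FLAG IP and -1.27 and -1.18 in the Input, with a change of -0.30 (95% interval -0.75 to 0.15). Tex11, an X-linked gene that acts in synapsis and crossover formation, was at -2.06 and -1.32 in the FLAG IP and -1.26 and -1.23 in the Input. For both genes the FLAG IP arrays were below the Input arrays, and for Tex11 mostly through FLAG IP 1, since the change was -0.81 without FLAG IP 2. Tex15, which is needed for meiotic recombination and acts in transposon silencing, was at 0.41 and 2.61 in the FLAG IP and 0.78 and 1.02 in the Input. Its change of 0.61 ± 0.73 covered a low and a high FLAG IP array, and without FLAG IP 1 it was 1.71.

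Terb1, which attaches telomeres to the nuclear envelope, was at -4.06 and -2.58 in the FLAG IP and -2.43 and -3.61 in the Input. It was the member with a wide gap in both groups, and its change of -0.30 had a 95% interval of -1.94 to 1.35. Hspa2, a testis chaperone of the HSP70 family, was at 0.57 and 0.74 in the FLAG IP and 1.02 and 0.73 in the Input, with a change of -0.22 (95% interval -0.66 to 0.23). Tdrd12, a Tudor protein of the piRNA pathway, was at 1.14 and 1.43 in the FLAG IP and 1.11 and 1.20 in the Input. Both overlapped between the groups at the brightest probe. The dimmer probes of both genes lay lower in the FLAG IP without overlap. The dimmer Hspa2 probe had -0.47 (limma, adjusted p = 0.075 when fitted as its own feature). The probes of Tdrd12 disagreed in sign, at 0.13 and -0.32.

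The FLAG IP arrays differed from each other over these genes more than the Input arrays did. At the brightest probe, 18 of the 19 genes were higher on FLAG IP 2 than on FLAG IP 1, with Spo11 as the exception, beside 45.1% of all tested features. Second probes of Sycp2 (-2.04 and -2.38) and Rec8 (0.34 and 0.08) were lower on FLAG IP 2. Those of Hormad1, Hspa2, Msh5, Tdrd12 and Tex12 were higher there. On the Input arrays 9 of 19 were higher on Input 2. The median size of the replicate difference over the 19 genes was 0.42 in the FLAG IP and 0.11 in the Input, beside 0.24 and 0.15 for all features. Tex15 was 4.62-fold higher on FLAG IP 2, Smc1b 3.25-fold, Terb1 2.79-fold and Hormad1 2.37-fold. A gap of that size or larger between the FLAG IP arrays was found in 0.310% of all tested features for Tex15, 0.838% for Smc1b, 1.43% for Terb1 and 2.52% for Hormad1. The median change of the 19 genes was 0.27 without FLAG IP 1 and -0.46 without FLAG IP 2, beside -0.16 and -0.14 over all features. In these fits the spread comes from the 2 Input arrays alone and leaves out the gap between the FLAG IP arrays.

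Other germ cell transcripts moved between the FLAG IP arrays as well. Of 34 other meiotic prophase genes tested, described below, 27 were higher on FLAG IP 2 (median difference 0.14) and 11 on Input 2. Of the 5 markers of germ cells of any stage 4 were higher on FLAG IP 2, with a median difference of 0.46, whereas 1 of the 5 measured markers of undifferentiated spermatogonia was higher there, with a median of -0.26. All 5 Leydig cell markers were also higher on FLAG IP 2 (median 0.82) and lower on Input 2 (median -1.07). Of the 8 tested markers of pachytene and later germ cells 3 were higher on FLAG IP 2. Summed levels of the germ cell markers were 50.4 and 66.4 in the FLAG IP and 46.7 and 48.1 in the Input, those of undifferentiated spermatogonia were 15.8 and 12.6 in the FLAG IP and 2.79 and 2.80 in the Input, and those of Leydig cells were 13.3 and 17.1 in the FLAG IP and 37.3 and 28.2 in the Input. The part of these differences in the results for the meiotic genes was not tested.

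**Figure D3:**
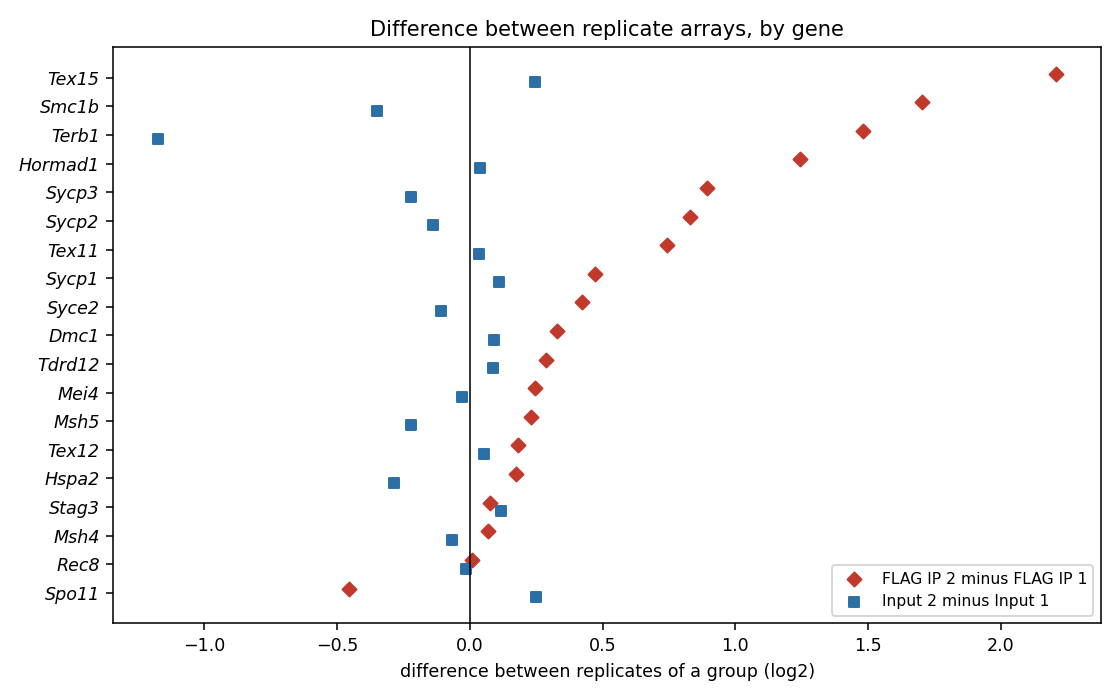
Difference between the replicate arrays of a group for the brightest probe of each of the 19 genes (horizontal axis, log2). FLAG IP is shown as red diamonds and Input as blue squares, ordered by the FLAG IP difference. Red diamonds lie right of 0 for every gene but Spo11 and reach 2.21 for Tex15, while blue squares lie on both sides of 0, with Terb1 at -1.17.

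The other genes of meiotic prophase were read on the same arrays. Of 54 listed, 35 had a probe and 34 were tested, with 8 higher, 5 lower and 21 not passing (limma, adjusted p under 0.05), beside the 15.8% and 21.3% of all features. Their median change was 0.13. Fewer of them were called without either Input array, where the spread comes from the FLAG IP arrays alone. Calls also became fewer among all features in those fits. Under spike-in scaling 5 of the 8 kept a positive change. All 8 lay above the median feature and all 5 lower ones below it. That was fixed by picking them on these same changes. Spike-in scaling moves all features alike, so it could not alter it and adds no support.

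The transcripts of the HOP2-MND1 complex, which helps DMC1 in strand exchange, both fell. Mnd1 was at -1.96 and -1.30 in the FLAG IP, against 0.00 and -0.24 in the Input. Psmc3ip, which encodes HOP2, was at -0.30 and 0.10 in the FLAG IP, against 1.06 and 0.89 in the Input. For both genes the FLAG IP arrays were well below the Input arrays, and the changes were -1.51 ± 0.26 for Mnd1 (adjusted p = 0.017) and -1.07 ± 0.19 for Psmc3ip (adjusted p = 0.018). The second Psmc3ip probe had -1.0. The remaining lower ones were H2ax, the histone variant phosphorylated at breaks, Hfm1, a helicase of crossover formation, and Tcfl5, a transcription factor of spermatocytes. Their changes were -0.89 ± 0.15, -0.80 ± 0.21 and -0.59 ± 0.13, with limma adjusted p between 0.015 and 0.040. Hfm1 was dim, at -5.26 and -4.85 in the FLAG IP and -4.12 and -4.40 in the Input. The lowest levels called well above background were -6.44 to -6.24.

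The shugoshin genes, whose products protect centromeric cohesin, had the largest increases of the list. Sgo1 was at 4.01 and 4.11 in the FLAG IP and 2.15 and 2.06 in the Input, a change of 1.95 ± 0.14 (limma, adjusted p = 0.0040), and under spike-in scaling it was the only one of the 34 called higher. Sgo2a was at 1.53 and 2.43 in the FLAG IP and 0.60 and 0.57 in the Input, a change of 1.40 ± 0.32 (adjusted p = 0.030), and its other probe had 2.05. Their arrays were far apart between the groups. Terf1, a telomere-repeat binding protein, rose by 1.24 ± 0.18, Brca1 by 1.04 ± 0.14, Exo1, an exonuclease that resects breaks, by 1.02 ± 0.15 and Top3a, a topoisomerase, by 0.82 ± 0.14, with adjusted p between 0.0095 and 0.016. Hus1 and Rad1, of the 9-1-1 checkpoint clamp, were higher by 0.70 and 0.55 (adjusted p = 0.023 and 0.037). Sgo1, Brca1, Exo1, Top3a, Hus1 and Rad1 also act in dividing cells outside meiosis.

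Stra8, which is induced by retinoic acid and starts meiosis, was bright in both groups. It was at 5.34 and 5.87 in the FLAG IP and 5.52 and 5.38 in the Input, so the groups overlapped. Its change of 0.16 had a 95% interval of -0.42 to 0.73 (limma, adjusted p = 0.60). Cntd1, a crossover factor, was well above background in the Input and on neither FLAG IP array. Its FLAG IP mean was at least 1.73-fold lower, but it was not called (limma, adjusted p = 0.077). The 95% interval of its change was -2.47 to -0.14. Morc2b was well above background in the FLAG IP and on neither Input array. Its FLAG IP mean was at least 1.5-fold higher, but it was not called (limma, adjusted p = 0.080). The 95% interval of its change was 0.06 to 1.15. The fold bounds set the brighter group's mean against the lowest signal called well above background on the dimmer arrays, or the probe's own signal where that is higher. They leave out the spread between replicates.

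**Figure D4:**
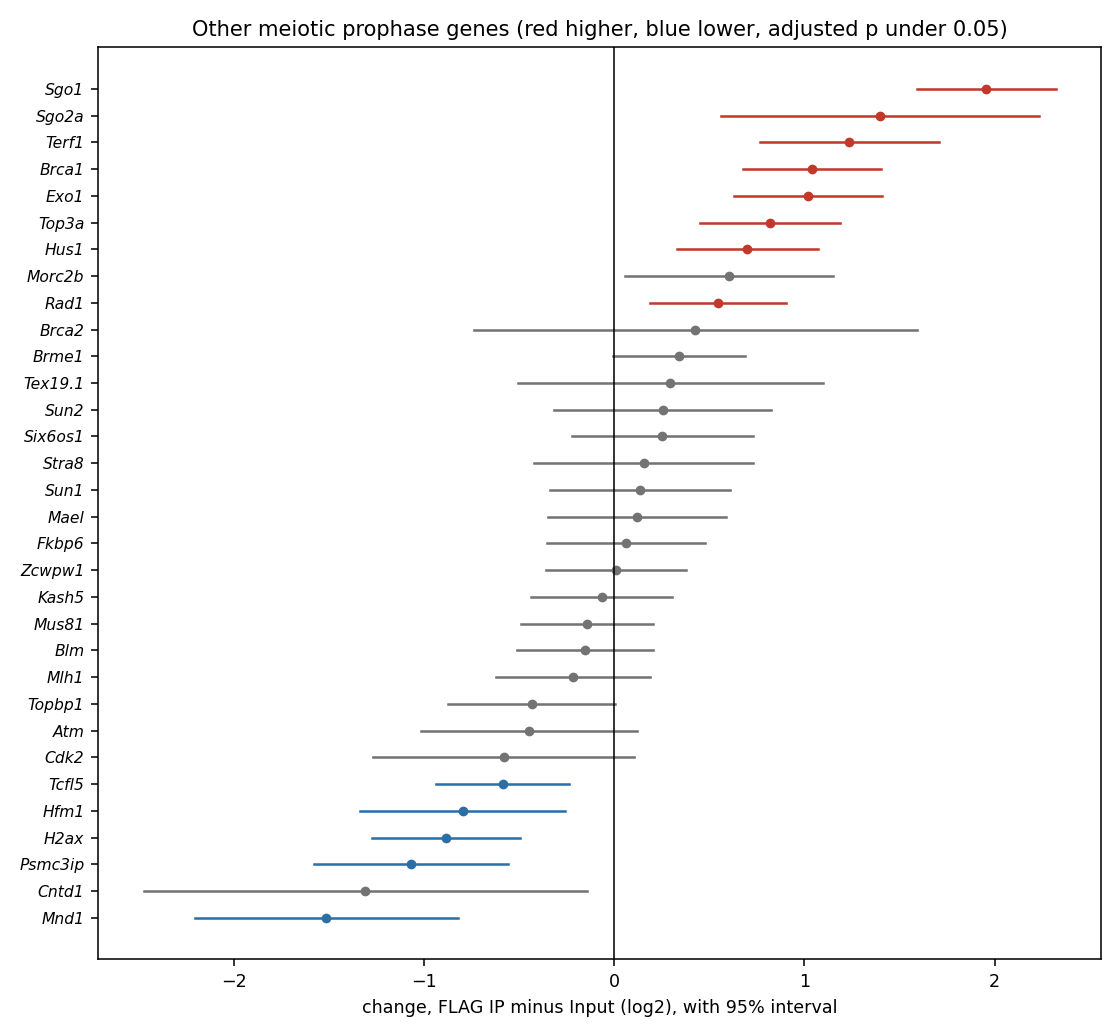
Change of 32 of the 34 other meiotic prophase genes tested (horizontal axis, FLAG IP minus Input, log2), with limma 95% intervals, in red where higher and in blue where lower at an adjusted p under 0.05. Sgo1 is highest at 1.95 and Mnd1 lowest at -1.51, the 19 grey genes did not pass, and of the 8 red genes 5 keep a positive change under spike-in scaling.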

How the data were processed

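Per the labels, Cy3-labelled cRNA of each sample was hybridised to a single-colour Agilent mouse array. The deposited scanner files hold intensities extracted with Agilent Feature Extraction 9.5 per the submitters' processing notes, background-subtracted within each array. Each sample's description field refers to a fetal gonad, but its title and characteristics state day 7, which was used. The deposited table of the series, by the authors, holds log2 values that equal the scanner signals less a constant per array, within 0.01 for 99.6% of probes, with column medians of 6.25 and 6.15 (FLAG IP) and 6.18 and 6.25 (Input). All arrays share a slide and a scan.

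Control spots and 62 to 90 outlier spots per array were left out, and 0 spots were saturated. The log2 processed signal of a probe was set relative to the 75th percentile over the 41174 probes of its array. Accessions were matched to RefSeq of GRCm38.p6, which named 22951 probes (55.7%), and coordinates are left out because the array design rests on another build. The brightest probe stood for a gene. A feature was tested when well above background on both arrays of a group. The groups were tested in R 4.3.3 with limma 3.58.1 (lmFit, eBayes, two-sided, no covariates), and adjusted p-values of genes are from it. The fit was tested on simulated data. Normexp, an alternative, used spot and background medians. Same-numbered arrays had deviations that correlated at -0.38, and nothing in the labels pairs them. Every listed gene is named. Some genes of the pathway list are counted but not reported here. Of the other pathway genes, those called were named up to 6 in each direction, with Stra8, and Hus1, Rad1, Cntd1 and Morc2b were chosen after their values were seen. The members and lists were chosen with earlier results of these data known.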

Additional observations from a re-analysis of the deposited data

How the results depend on the processing

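With 2 arrays per group, calls near the threshold rest on single arrays. Among all features, 3410 were higher and 4600 lower. Spike-in scaling gave 588 and 13735 features, 0 and 10 members, 1 and 16 other pathway genes, and a member median of -0.99, with Msh4 at -0.45. With the replicate number as a block, 2269 features were higher and 2290 lower, 2 and 0 members, and 5 and 3 other pathway genes. The block rests on a number only, and no pairing is stated. With no filter on dim probes 3020 features were lower. The mean of a gene's probes and each probe as its own feature (chosen after seeing the data) gave 1 member lower, Msh5, and trend and robust moderation gave 1, Stag3. Leaving out 1 array gave 0 to 6 members higher, 0 to 2 lower, a member median between -0.46 and 0.27, and 977 to 3725 features higher and 552 to 4573 lower. It gave 1 to 10 other pathway genes higher and 0 to 7 lower. Hormad1 was at 0.60 without FLAG IP 1 and at -0.64 without FLAG IP 2. Fits without 1 array have 1 residual degree of freedom. Without a FLAG IP array their spread is that of the Input arrays alone, and without an Input array that of the FLAG IP arrays alone. A slide block could not be run, since all arrays share a slide. Of all calls 42.6% were higher, 49.8% with the replicate block, 4.11% under spike-in scaling, and 58.0% and 64.7% without Input 1 and Input 2.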
